A study of Mus musculus with 7 samples.

Results

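The glycolysis and hypoxia response genes described here are 35 genes for the uptake of glucose, its breakdown to lactate, the export of acid and the sensing of oxygen, and they were chosen by an exact match of their names in the deposited table. They fill 36 of its 38026 rows, because the name *Aldoa* stands on 2 rows. Apart from the main *Aldoa* gene, it names a weakly expressed transcript unit upstream of it on the same strand (chr7:126800790-126809108, ENSMUSG00000114515.2). All 36 rows passed the filter on low values, a normalized read count of at least 10 in at least 3 libraries, as did 21322 rows in all.

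Glycolysis splits glucose into pyruvate in the cytosol, and lactate dehydrogenase turns pyruvate into lactate, which leaves the cell with a proton. When oxygen is scarce, the alpha subunits of the hypoxia-inducible factors (HIF) escape the prolyl hydroxylases that otherwise mark them for destruction, and HIF then raises the transcription of glycolytic enzymes, of glucose and lactate transporters and of the carbonic anhydrases that handle acid at the cell surface. Pancreatic ductal adenocarcinoma (PDA) is known as a poorly perfused, hypoxic and strongly glycolytic tumor.

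Bulk RNA-seq was performed on 7 untreated subcutaneous tumors, which had grown in C57BL/6 mice for 2 weeks from inoculated cells of the 1242 KPC line. KPC lines derive from pancreatic tumors of mice engineered with Cre under the *Pdx1* promoter, and all of the cells used here also carried Cas9 from a lentivirus. The guide was scrambled in the control tumors (sgScramble, n = 4, replicates 1 to 4) and directed at *Krt19*, a keratin of epithelial cells, in the *Krt19* knockout tumors (sgKrt19, n = 3, replicates 5, 6 and 8). The study prepared both mixed edited populations and single-cell clones, and the sources used here do not give which of them formed these tumors. Per its methods, mice were bought at 6 weeks of age and kept for 2 weeks ahead of an experiment. The labels number the tumors without saying that each grew in its own mouse, so p-values measure only the spread between these samples.

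The libraries held 40781199 to 44972100 reads. *Krt19* lay between 17841 and 27618 normalized read counts in the sgScramble tumors and between 1606 and 2470 in the sgKrt19 tumors, a log2 fold change of -3.52 (adjusted p = 1.735e-05 by limma, SE 0.18). Normalized read counts are reads per gene divided by a size factor of the library, fold changes are sgKrt19 over sgScramble, and errors after ± are SDs over the tumors of a group. Markers of other cells differed widely between the groups. The summed level of 19 skeletal muscle genes was 615 to 4604 in the sgScramble tumors, with 4604 in sgScramble 3, and 33723 to 47471 in the sgKrt19 tumors, and that of 10 T cell genes was 628 to 1296 and 3687 to 6913. Markers of the labelled tissue were present in every tumor, with 10 epithelial genes summing to 134974 to 188458 and to 284886 to 292570. In bulk samples, fewer cells of a type and less RNA per cell cannot be told apart.

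Most of the glycolysis and hypoxia genes were not called as different between the groups, and 4 were. The cell-surface carbonic anhydrases *Car12* (3.95-fold) and *Car9* (2.11-fold) were higher in the sgKrt19 tumors, while *Eno2*, the enolase of neurons, was 3.05-fold lower and *P4ha1*, a prolyl hydroxylase of collagen, 1.41-fold lower, as ratios of group means. These 4 rows are 11.1% of the 36, where 34.0% of all 21322 rows tested passed the same threshold (limma, adjusted p under 0.05). The log2 fold changes were positive in 18 rows and negative in 18, with a median of -0.005 beside 0.007 over all rows tested. In 28 of the 36 (77.8%) the log2 fold change was at most 0.5 in size, which held for 62.0% of all rows. The values of the groups did not overlap in 4 rows, namely *Car12*, *Pfkm* and *Pfkp* above and *Eno2* below, where 41.1% of all rows tested did not overlap.

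**Figure D1:**
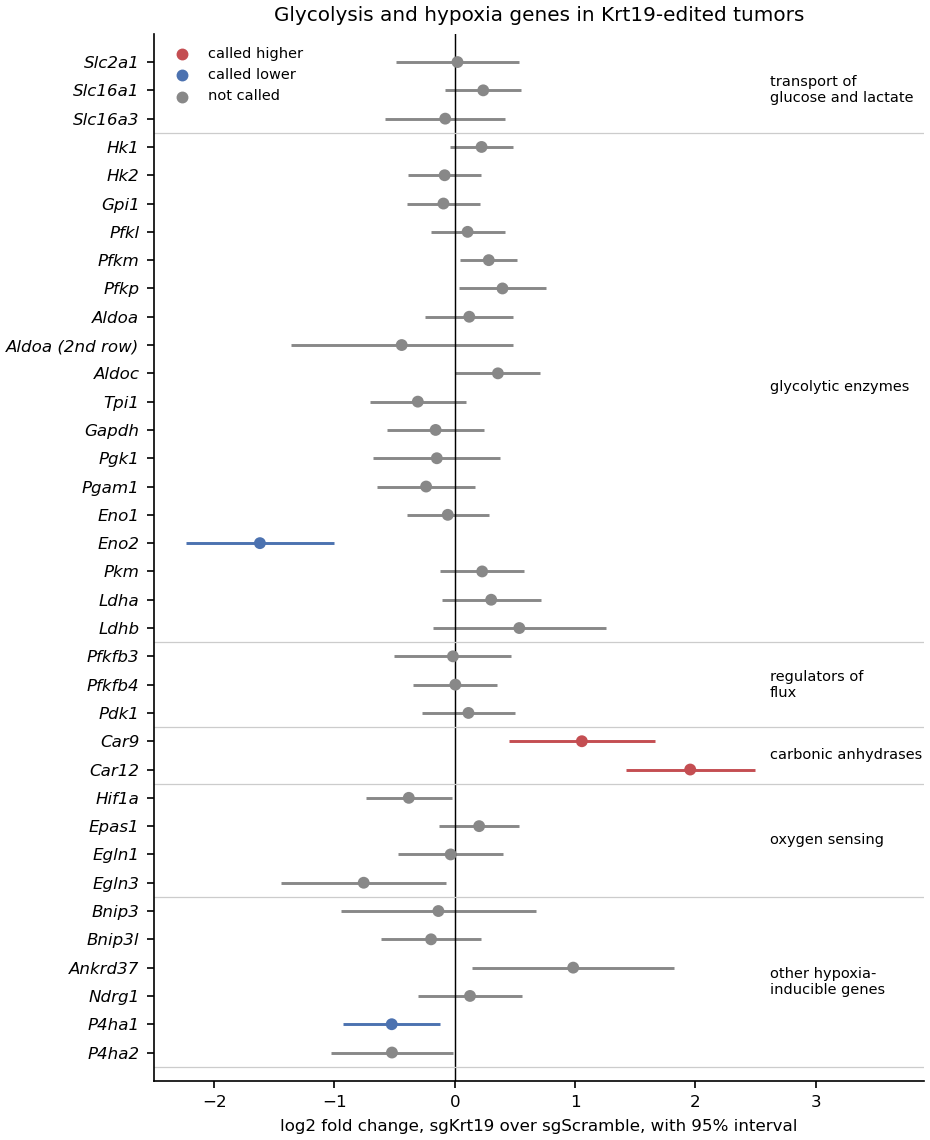
Points give the log2 fold change of sgKrt19 over sgScramble tumors for each of the 36 rows, ordered by role, with horizontal bars for the 95% interval from limma. *Car9* and *Car12* lie to the right of 0 and *Eno2* and *P4ha1* to the left of 0 as called genes, and the gray points of the other 32 rows lie between -0.76 and 0.98.

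The scale of the values bears on the directions. When the reads were scaled by library size alone, the median over all rows moved to -0.21 and that of the members to -0.22, the members were positive in 11 rows and negative in 25, and 2 were called higher and 7 lower. The share of higher genes among all calls went from 52.8% to 27.7% with that scaling. The median within-group SD of the members was 0.28 on the log2 scale, beside 0.24 over all rows tested and 0.19 over the 1760 rows at or above the median level of the members. Of those 1760 rows 36.5% were called.

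The promoters of 6 members are shown, the 4 called genes and *Ankrd37* and *Egln3*, which had the largest differences among the 5 members with an adjusted p between 0.05 and 0.1. Each sequence gives the 250 bases before the RefSeq transcription start on GRCm38, 5′ to 3′ on the strand of the gene. Capitals mark the letters ACGTG or GCGTG, the core that HIF binds, and their reverse complements CACGT and CACGC.
Car9 (chr4:43506776-43507025, plus strand): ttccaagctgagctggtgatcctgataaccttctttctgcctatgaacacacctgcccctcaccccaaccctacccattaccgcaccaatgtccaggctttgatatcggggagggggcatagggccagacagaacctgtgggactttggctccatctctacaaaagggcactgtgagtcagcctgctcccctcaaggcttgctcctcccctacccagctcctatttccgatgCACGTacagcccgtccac
Car12 (chr9:66713436-66713685, plus strand): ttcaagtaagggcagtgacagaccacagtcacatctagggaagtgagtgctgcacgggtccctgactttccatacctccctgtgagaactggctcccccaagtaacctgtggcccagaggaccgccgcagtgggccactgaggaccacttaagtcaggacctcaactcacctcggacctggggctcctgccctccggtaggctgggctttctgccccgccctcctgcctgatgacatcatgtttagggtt
Eno2 (chr6:124769674-124769923, minus strand): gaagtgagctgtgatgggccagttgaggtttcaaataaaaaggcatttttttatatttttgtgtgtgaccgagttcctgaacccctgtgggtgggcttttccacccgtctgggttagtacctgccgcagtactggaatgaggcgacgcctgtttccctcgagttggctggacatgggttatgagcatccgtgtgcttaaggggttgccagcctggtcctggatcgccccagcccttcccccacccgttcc
P4ha1 (chr10:59323046-59323295, plus strand): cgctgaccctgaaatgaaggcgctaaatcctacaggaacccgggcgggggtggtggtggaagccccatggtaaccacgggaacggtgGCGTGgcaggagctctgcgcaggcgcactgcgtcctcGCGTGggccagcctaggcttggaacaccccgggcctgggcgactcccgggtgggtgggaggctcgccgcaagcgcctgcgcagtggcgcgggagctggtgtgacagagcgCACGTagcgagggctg
Ankrd37 (chr8:45999851-46000100, minus strand): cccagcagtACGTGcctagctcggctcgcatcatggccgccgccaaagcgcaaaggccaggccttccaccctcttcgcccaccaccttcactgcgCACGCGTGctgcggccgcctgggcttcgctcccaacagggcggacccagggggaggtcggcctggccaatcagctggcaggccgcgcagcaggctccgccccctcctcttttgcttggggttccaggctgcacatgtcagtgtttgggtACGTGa
Egln3 (chr12:54203875-54204124, minus strand): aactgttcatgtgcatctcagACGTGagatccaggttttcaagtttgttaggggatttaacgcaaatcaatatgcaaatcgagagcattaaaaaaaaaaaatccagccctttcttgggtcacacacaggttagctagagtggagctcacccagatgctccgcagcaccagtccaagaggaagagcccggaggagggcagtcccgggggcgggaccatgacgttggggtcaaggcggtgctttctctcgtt
The promoter of *Car9* held 1 match, 18 to 14 bases before the start, and that of *P4ha1* 3 matches, the nearest 16 to 12 bases before the start. *Ankrd37* had 4 matches at 3 places, since CACGC and GCGTG overlap at one of them, and its nearest match ended 2 bases before the start. *Egln3* had 1 match, 229 to 225 bases before the start, and no match was found in the windows of *Car12* and *Eno2*. Windows were at hand for 32 of the members, and not for *Bnip3l*, *Epas1* and *Ndrg1*. At least 1 match stood in 36 of their 45 windows (80.0%) and in 28 of the 32 genes (87.5%), where 38.6% of all 32851 windows searched and 41.5% of the genes they belong to held one. The called genes thus included a pair with a match and a pair without one, and *Gpi1* and *Tpi1* were the other members whose windows had none. A match is a description of letters and not a measured binding site. The shares of windows and genes with a match carry no test. The members were chosen as glycolysis and hypoxia genes, and the other windows were not matched to theirs in base content or expression.

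None of the 3 transporters was called by limma, edgeR or DESeq2, and 0 had an unadjusted p under 0.05 by limma. *Slc2a1*, the main glucose transporter of hypoxic cells, lay at 5727, 4601, 3968 and 4427 normalized read counts in sgScramble 1 to 4 and at 7009, 4680 and 3189 in sgKrt19 5, 6 and 8. The sgKrt19 tumors thus held both its highest and its lowest value, and its log2 fold change was 0.02 (adjusted p = 0.948 by limma, 95% interval -0.49 to 0.54, SE 0.23). *Slc16a1*, a carrier of lactate in both directions, averaged 6670 ± 713 in sgScramble and 7903 ± 1318 in sgKrt19 tumors (log2 fold change 0.24, adjusted p = 0.218 by limma). *Slc16a3*, the exporter of lactate from glycolytic cells, averaged 1339 ± 269 and 1294 ± 425 (-0.08, adjusted p = 0.806 by limma).

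Of the 18 rows of glycolytic enzymes, *Eno2* was called lower and 17 were not called. *Eno2* stood at 92.9, 108, 118 and 153 normalized read counts in sgScramble 1 to 4 and at 39.3, 25.0 and 51.5 in sgKrt19 5, 6 and 8. Each sgKrt19 value was below each sgScramble value, and the log2 fold change was -1.62 (adjusted p = 0.00193 by limma, SE 0.28). The gene lies at chr6:124760053-124769673 on the minus strand. It was called in all 14 alternative fits, which changed the test, the scaling, the filter or the pseudocount or left out 1 tumor, with log2 fold changes from -1.85 to -1.35.

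*Eno2* was a minor part of the enolase RNA in both groups. Per kilobase of exon, *Eno1*, the enolase of most tissues, had 254-fold the level of *Eno2* in the sgScramble tumors and 747-fold in the sgKrt19 tumors. *Eno1* itself averaged 34270 ± 3892 and 32973 ± 4586 normalized read counts, with a log2 fold change of -0.06 (adjusted p = 0.789 by limma, SE 0.15).

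The first steps of the pathway showed small differences. *Hk1*, the hexokinase of most cells, lay at 5093, 5581, 4554 and 5653 normalized read counts in sgScramble 1 to 4 and at 5513, 6710 and 6042 in sgKrt19 5, 6 and 8 (log2 fold change 0.22, adjusted p = 0.168 by limma). *Hk2*, the hexokinase that HIF induces, lay at 3991, 4544, 3212 and 3875 and at 3932, 3879 and 3208 (-0.08, adjusted p = 0.652 by limma). The groups overlapped for both. *Gpi1*, the isomerase of glucose 6-phosphate, had a log2 fold change of -0.09 (adjusted p = 0.616 by limma).

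The 3 phosphofructokinases, which catalyze the committed step, had positive log2 fold changes that did not pass the threshold, and that of *Pfkl* turned negative (-0.11) when reads were scaled by library size alone. *Pfkm*, the muscle form, stood at 1714, 1889, 1866 and 1677 normalized read counts in sgScramble 1 to 4 and at 2127, 1994 and 2411 in sgKrt19 5, 6 and 8 (log2 fold change 0.28, SE 0.11, adjusted p = 0.0648 by limma). *Pfkp*, the platelet form, stood at 4745, 4839, 3151 and 4278 and at 5288, 6464 and 4926 (0.40, SE 0.16, adjusted p = 0.0848 by limma). Every sgKrt19 tumor lay above every sgScramble tumor for these genes, and the nearest tumors were close, at 1994 against 1889 for *Pfkm* and 4926 against 4839 for *Pfkp*. The skeletal muscle markers were higher in the sgKrt19 tumors too, and their part in the level of *Pfkm* was not tested. *Pfkl*, the liver form and the most abundant of them per kilobase, averaged 7718 ± 894 and 8332 ± 1249 (0.11, adjusted p = 0.571 by limma).

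*Aldoa*, the aldolase of muscle and most tumors, averaged 29728 ± 4668 normalized read counts in sgScramble and 32247 ± 4387 in sgKrt19 tumors, a log2 fold change of 0.12 (adjusted p = 0.589 by limma) that became -0.10 with scaling by library size alone. Its second row held 4.62 to 17.8 normalized read counts, near the floor of 3 reads in sgKrt19 5, and had a log2 fold change of -0.44 (adjusted p = 0.43 by limma, SE 0.42). *Aldoc*, the brain aldolase, lay at 1715, 1588, 1089 and 1254 in sgScramble 1 to 4 and at 1939, 1714 and 1700 in sgKrt19 5, 6 and 8 (log2 fold change 0.36, SE 0.16, adjusted p = 0.104 by limma). Only sgScramble 1 reached into the range of the sgKrt19 tumors for *Aldoc*.

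*Gapdh*, which oxidizes glyceraldehyde 3-phosphate, had the highest level per kilobase in both groups and stood at 77791, 70469, 58427 and 61234 normalized read counts in sgScramble 1 to 4 and at 62512, 69423 and 48786 in sgKrt19 5, 6 and 8. The groups overlapped, and its log2 fold change was -0.16 (adjusted p = 0.519 by limma, SE 0.18). Those of *Tpi1*, the triose isomerase, *Pgk1*, the first enzyme to yield ATP, and *Pgam1*, the mutase after it, were -0.31, -0.15 and -0.24, with adjusted p = 0.207, 0.646 and 0.335 by limma. *Pkm*, the pyruvate kinase of most tumors, averaged 58758 ± 5817 and 68816 ± 6766 (0.23, adjusted p = 0.281 by limma).

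Lactate dehydrogenase was almost all of the A form. *Ldha* lay at 43754, 37865, 31940 and 29898 normalized read counts in sgScramble 1 to 4 and at 50892, 46781 and 35193 in sgKrt19 5, 6 and 8 (log2 fold change 0.30, SE 0.19, 95% interval -0.11 to 0.72, adjusted p = 0.226 by limma). *Ldhb*, the form that favors pyruvate, lay at 99.4, 57.3, 135 and 102 and at 190, 152 and 89.3 (0.54, SE 0.32, adjusted p = 0.217 by limma). The groups overlapped for both genes. Per kilobase of exon, *Ldha* had 173-fold the level of *Ldhb* in the sgScramble and 146-fold in the sgKrt19 tumors.

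The 3 regulators of flux had estimates near 0, with 0 called by limma, edgeR or DESeq2 and 0 at an unadjusted p under 0.05 by limma. *Pfkfb3* and *Pfkfb4*, which make the activator of phosphofructokinase, had log2 fold changes of -0.015 (95% interval -0.50 to 0.47, adjusted p = 0.965 by limma) and 0.005 (-0.34 to 0.36, adjusted p = 0.983 by limma). *Pdk1*, a kinase that inhibits pyruvate dehydrogenase, averaged 3426 ± 591 and 3723 ± 769 normalized read counts (0.11, adjusted p = 0.634 by limma). The signs of *Pfkfb4* and *Pdk1* turned when reads were scaled by library size alone, to -0.21 and -0.10.

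Both carbonic anhydrases rose. *Car9*, a membrane enzyme widely used as a marker of hypoxia, stood at 3507, 2171, 2586 and 1770 normalized read counts in sgScramble 1 to 4 and at 6280, 6394 and 3218 in sgKrt19 5, 6 and 8. Tumors 5 and 6 were above all controls, while tumor 8 lay below sgScramble 1. The log2 fold change was 1.06 (adjusted p = 0.0149 by limma, 95% interval 0.45 to 1.66, SE 0.27). *Car9* (chr4:43506966-43513729, plus strand) was not called without sgKrt19 5 or without sgKrt19 6, with log2 fold changes of 0.90 and 0.89, and an opposite-strand gene overlapped 9.29% of its exon bases.

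*Car12*, the related membrane enzyme, stood at 52.9, 35.6, 55.7 and 58.4 normalized read counts in sgScramble 1 to 4 and at 162, 257 and 182 in sgKrt19 5, 6 and 8. Its highest control was below the lowest sgKrt19 tumor, and the log2 fold change was 1.96 (adjusted p = 0.000349 by limma, 95% interval 1.42 to 2.50, SE 0.24). *Car12* (chr9:66713686-66766845, plus strand) was called in all 14 alternative fits, with log2 fold changes of 1.74 to 2.10. Its level remained far below that of *Car9*, at 6.67 against 1089 normalized read counts per kilobase of exon in the sgScramble tumors and 26.4 against 2299 in the sgKrt19 tumors. Of the 10 epithelial markers summed above, 6 were called higher, among them the keratins *Krt8* (log2 fold change 0.91) and *Krt18* (0.97), which make up most of the sum, while *Epcam* (0.06), *Krt7* (-1.03), *Cldn4* (-1.23) and *Cldn7* (0.47) were not called, and their part in the rise of *Car9* and *Car12* was not tested.

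**Figure D2:**
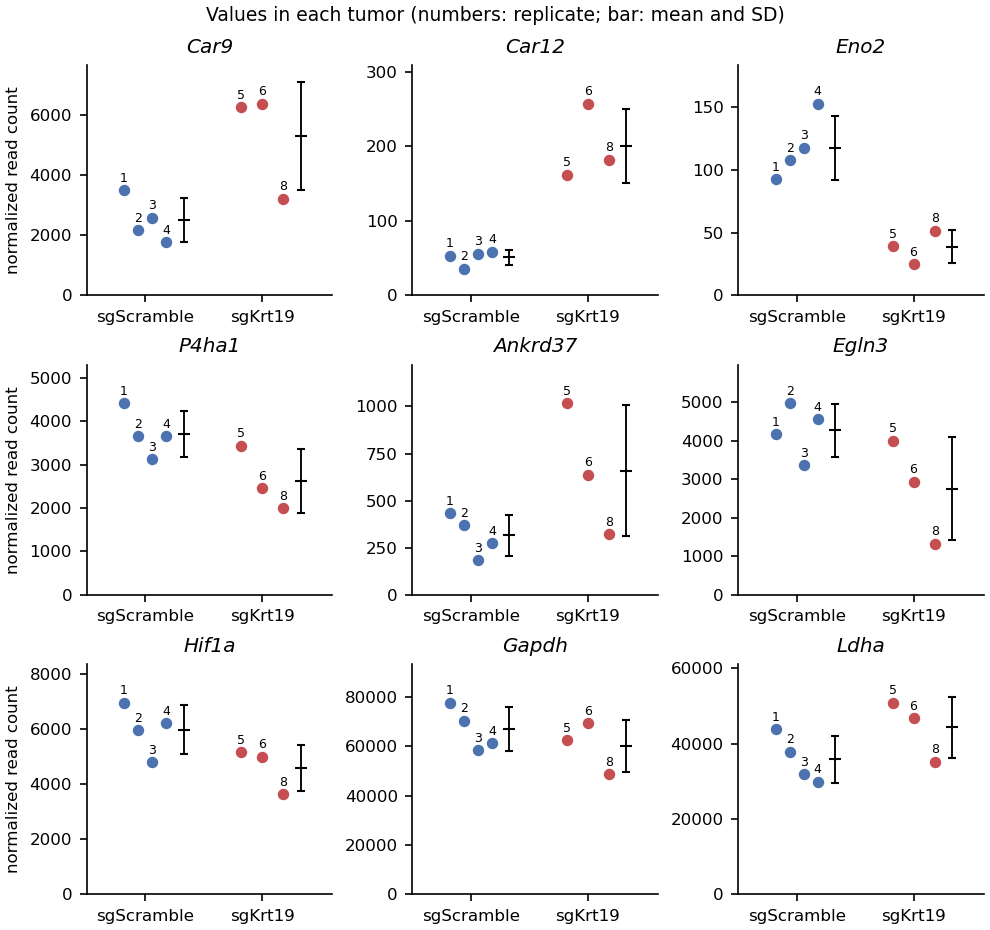
Each point is the normalized read count of 1 tumor, numbered by replicate, for 9 members, with the group mean and SD beside the points. *Car12* and *Eno2* separate the groups, *Car9* and *P4ha1* overlap in 1 or more tumors, and sgKrt19 8 lies lowest of its group in 7 of the 9 panels.

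Of the 4 genes of oxygen sensing 0 were called by limma, edgeR or DESeq2, and *Hif1a* and *Egln3* had an unadjusted p under 0.05 by limma. *Hif1a*, the factor that is stabilized by hypoxia in most cells, stood at 6947, 5946, 4780 and 6192 normalized read counts in sgScramble 1 to 4 and at 5150, 4991 and 3633 in sgKrt19 5, 6 and 8 (log2 fold change -0.38, SE 0.16, adjusted p = 0.0894 by limma). The ranges met only because sgScramble 3 was below sgKrt19 5 and 6. *Epas1*, its relative in endothelium and other cells, averaged 772 ± 132 and 883 ± 102 (0.20, adjusted p = 0.313 by limma).

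*Egln3*, a prolyl hydroxylase that HIF itself induces, stood at 4164, 4977, 3370 and 4551 normalized read counts in sgScramble 1 to 4 and at 4002, 2936 and 1326 in sgKrt19 5, 6 and 8. The sgKrt19 values spread 3.02-fold from lowest to highest, and the log2 fold change was -0.76 (adjusted p = 0.0812 by limma, 95% interval -1.44 to -0.07, SE 0.31). *Egln1*, the main hydroxylase of HIF, averaged 4990 ± 869 and 4941 ± 1365 (log2 fold change -0.03, adjusted p = 0.907 by limma).

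Among the 6 other hypoxia-inducible genes *P4ha1* was called lower and 5 were not called. *P4ha1* (chr10:59323296-59373304, plus strand) stood at 4419, 3658, 3121 and 3654 normalized read counts in sgScramble 1 to 4 and at 3438, 2449 and 1996 in sgKrt19 5, 6 and 8. Tumors 6 and 8 were below all controls, and tumor 5 lay above sgScramble 3. The log2 fold change was -0.52 (adjusted p = 0.0479 by limma, 95% interval -0.93 to -0.12, SE 0.18), close to the threshold. The call was lost without sgScramble 1, 2 or 4 and without sgKrt19 6 or 8, that is in 5 of the 7 fits that left out 1 tumor, with log2 fold changes of -0.44, -0.53, -0.53, -0.49 and -0.34. *P4ha2*, the second catalytic subunit for collagen, had the same log2 fold change of -0.52 with a wider error (adjusted p = 0.101 by limma, SE 0.23).

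*Ankrd37*, a small ankyrin protein known as a HIF target, stood at 432, 369, 184 and 275 normalized read counts in sgScramble 1 to 4 and at 1018, 638 and 321 in sgKrt19 5, 6 and 8. Tumors 5 and 6 were above all controls and tumor 8 lay among them. Its log2 fold change of 0.98 (adjusted p = 0.0674 by limma, 95% interval 0.15 to 1.82, SE 0.38) was not called, whereas edgeR and DESeq2 on the recovered reads called it, with log2 fold changes of 1.05 and 1.05. Over 14 alternative fits its adjusted p ran from 0.0107 to 0.258, and an opposite-strand gene overlapped 22.7% of its exon bases.

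The mitophagy receptors *Bnip3* and *Bnip3l* had log2 fold changes of -0.14 (adjusted p = 0.793 by limma, SE 0.36) and -0.20 (adjusted p = 0.437 by limma, SE 0.19). *Bnip3* stood at 7231, 4909, 3292 and 4189 normalized read counts in sgScramble 1 to 4 and at 8022, 4017 and 2434 in sgKrt19 5, 6 and 8. Its sgKrt19 tumors spread 3.30-fold and its sgScramble tumors 2.20-fold, and the sgKrt19 group held both extremes. *Ndrg1*, a stress gene induced by hypoxia, averaged 15022 ± 1898 and 16826 ± 5180 (log2 fold change 0.13, adjusted p = 0.635 by limma), and turned to -0.09 with scaling by library size alone.

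Many of the members were high or low together in the same tumor. Within the sgKrt19 group, tumor 5 was highest in 24 of the 36 rows (66.7%, against 40.0% of all rows tested) and tumor 8 was lowest in 29 (80.6%, against 32.7%). Among the controls, sgScramble 1 was highest in 22 rows (61.1%, against 30.5%) and sgScramble 3 lowest in 23 (63.9%, against 24.4%). In the 6 other hypoxia-inducible genes, sgKrt19 5 was highest and sgKrt19 8 lowest in 6 of 6, sgScramble 1 was highest in 6 of 6 and sgScramble 3 lowest in 5 of 6.

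In log2 units, the median deviation of the members from their group mean was 0.20 in sgKrt19 5, 0.09 in sgKrt19 6 and -0.32 in sgKrt19 8, and 0.19, 0.08, -0.20 and -0.08 in sgScramble 1 to 4. Over all rows tested these medians lay between -0.02 and 0.02. The genes are not independent of each other, so these shares and medians describe the 7 libraries and carry no test. In the list of 41 other HIF target genes, sgKrt19 5 was likewise highest in 27 (65.9%) and sgKrt19 8 lowest in 23 (56.1%). The controls were less uniform there, with sgScramble 1 highest in 16 (39.0%) and sgScramble 4 in 12 (29.3%), while sgScramble 3 was lowest in 20 (48.8%). The summed T cell markers were 6248, 6913 and 3687 in sgKrt19 5, 6 and 8, and their part in this order was not tested.

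**Figure D3:**
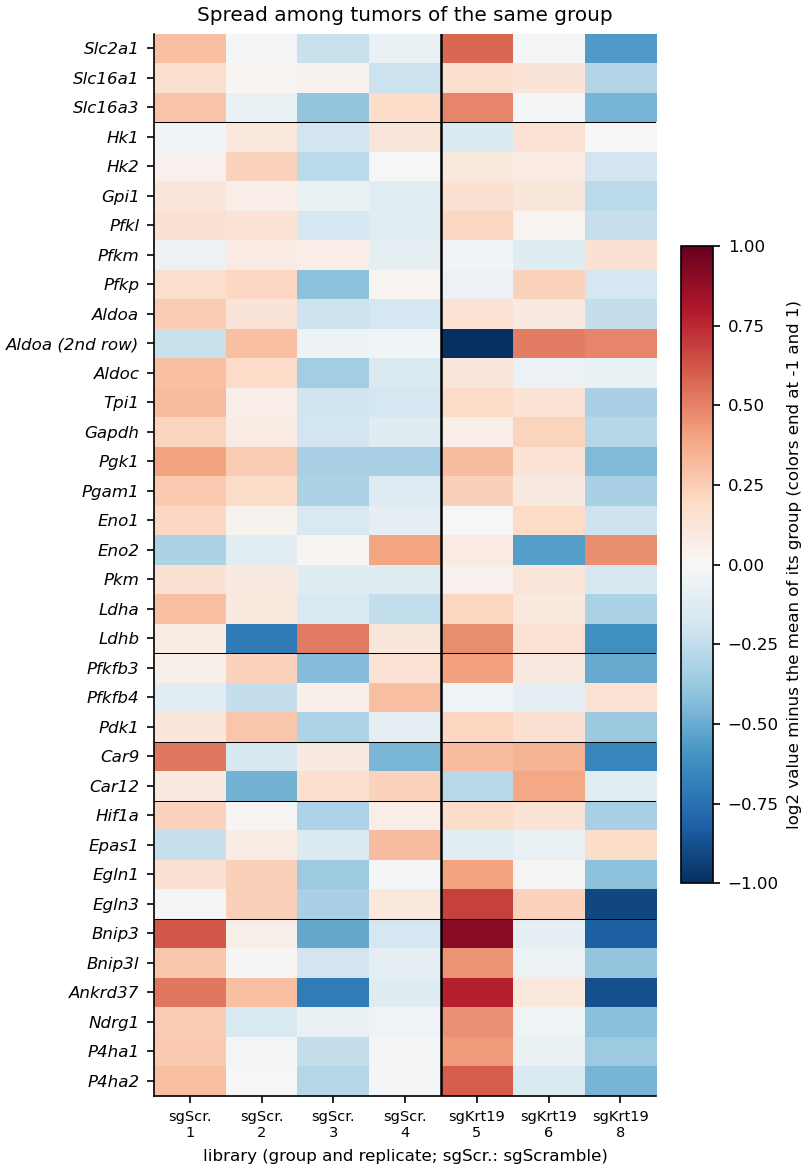
Colors give the log2 value of each gene in each tumor minus the mean of its group, with genes in rows by role and tumors in columns. The columns of sgScramble 1 and sgKrt19 5 are mostly red (above the mean), and those of sgScramble 3 and sgKrt19 8 mostly blue, with median deviations of 0.19, 0.20, -0.20 and -0.32.

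The balance between related genes was compared in each tumor as the difference of their log2 values, which is not altered by the scaling of a library apart from the pseudocount. In 12 such pairs, the groups did not overlap in 4. Among all single rows tested 41.1% did not overlap, and no such share was computed for pairs of genes at large. The mean log2 difference was shifted in the sgKrt19 tumors by -1.56 for *Eno2* minus *Eno1*, by -0.72 for *Egln3* minus *Egln1*, by 0.585 for *Epas1* minus *Hif1a* and by 0.24 for *Aldoc* minus *Aldoa*. Each gave p = 0.0571 in a two-sided exact permutation test, which is the smallest value that 35 splits of 7 tumors allow, and 0.171 after Benjamini-Hochberg adjustment over the 12 pairs, so the design could not reach 0.05.

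*Egln3* minus *Egln1* lay at -0.40, -0.22, -0.18 and -0.09 in sgScramble 1 to 4 and at -0.67, -0.72 and -1.45 in sgKrt19 5, 6 and 8 on counts not divided by exon length. *Epas1* minus *Hif1a* lay at -3.42, -2.89, -2.79 and -2.71 and at -2.66, -2.58 and -1.86. The nearest tumors of the groups for *Epas1* minus *Hif1a*, sgScramble 4 and sgKrt19 5, thus differed little. For *Egln3* minus *Egln1* the nearest were sgScramble 1 and sgKrt19 5, at -0.40 and -0.67. The other 8 pairs overlapped, with shifts from -0.315 to 0.29, and *P4ha2* minus *P4ha1* (shift 0.002) kept a narrow range of -0.98 to -0.70 in all 7 tumors.

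**Figure D4:**
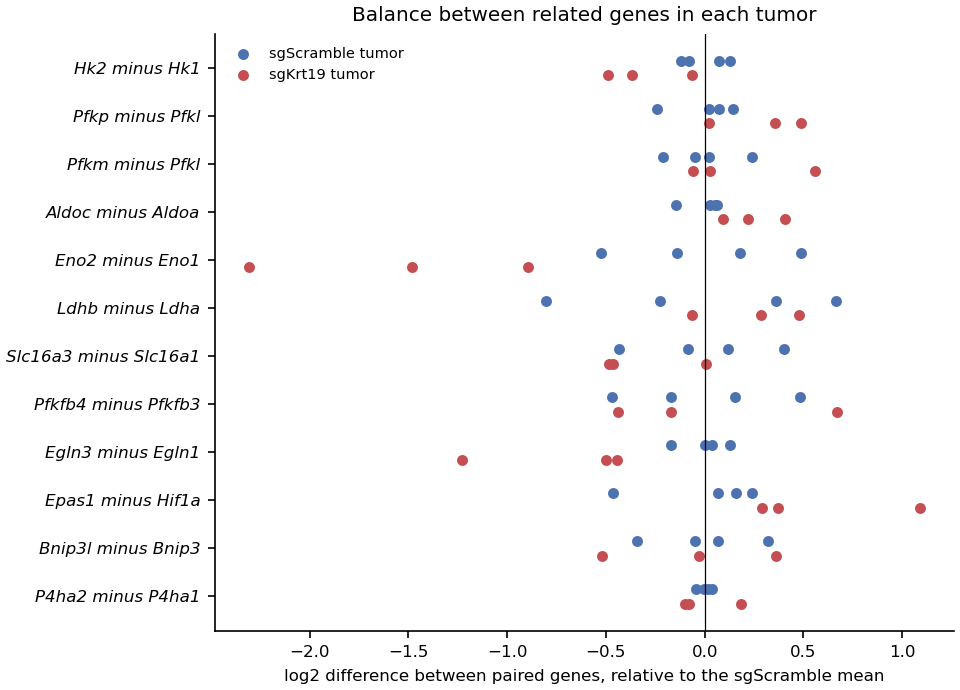
Each point is 1 tumor, and the horizontal axis gives the log2 difference between the genes of a pair relative to the sgScramble mean of that pair. The 3 sgKrt19 tumors lie wholly to the left of the controls for *Eno2* minus *Eno1* and *Egln3* minus *Egln1*, wholly to the right for *Aldoc* minus *Aldoa* and *Epas1* minus *Hif1a*, and overlap the controls for the other 8 pairs.

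Further genes of the same and of adjoining pathways were examined as lists. Of 41 other glycolysis genes tested, 17 were called higher and 5 lower (53.7%, where 34.0% of all rows were called), with a median log2 fold change of 0.19. This list is broad and also holds genes of glycogen, of the pentose phosphate pathway and of the entry of pyruvate into mitochondria. Its share of calls is therefore not that of glycolysis alone. The largest rises were *Pygm* (4.11), the glycogen phosphorylase of muscle, *Pgam2* (3.35), the muscle mutase, *Fbp2* (2.94), the muscle fructose bisphosphatase, and *Slc2a4* (2.45), the glucose transporter of muscle and fat. *Pygm* lay at 26.0 to 75.8 normalized read counts in the sgScramble tumors, with 75.8 in sgScramble 3, and at 425 to 841 in the sgKrt19 tumors. All 19 skeletal muscle markers were higher too, and their part in these rises was not tested. Smaller rises were called in other parts of the list. They included *Mpc1* (0.89) and *Mpc2* (0.76), for the entry of pyruvate into mitochondria. In the pentose phosphate pathway *Taldo1* (0.88), *Pgd* (0.47) and *Tkt* (0.34) were called higher, while *G6pdx* (-0.02) was not called.

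Genes called lower among those 41 included *Slc2a2* (-1.92), the glucose transporter of liver, *Eno4* (-1.06), an enolase of sperm, and *Gbe1* (-0.80), which branches glycogen. *Gbe1* lay at 411 to 555 normalized read counts in the sgScramble and at 216 to 318 in the sgKrt19 tumors, and *Slc2a2* at 35.6 to 42.7 and at 8.40 to 11.0. The groups did not overlap for these 3 genes.

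Of 41 other HIF target genes tested, 7 were called higher and 11 lower (43.9%), with a median of -0.10, where 34.0% of all rows were called. The largest rises were *Stc2* (1.69), a secreted glycoprotein, *Nos2* (1.13), the inducible nitric oxide synthase, *Edn1* (1.04), which encodes a vasoconstrictor, and *Angptl4* (0.95), an inhibitor of lipoprotein lipase. The largest falls were *Ak4* (-1.06), a mitochondrial adenylate kinase, *Fam13a* (-0.94), *Plod2* (-0.94), a lysyl hydroxylase of collagen, and *Vldlr* (-0.85), a lipoprotein receptor. *Plod2* lay at 2955, 3017, 1986 and 3075 normalized read counts in sgScramble 1 to 4 and at 1898, 1461 and 1030 in sgKrt19 5, 6 and 8. As with *P4ha1*, tumor 8 was the lowest of all.

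Of 14 regulators of the HIF pathway, 2 were called higher and 3 lower (35.7%), a share close to the 34.0% of all rows tested. *Elob* (0.62) and *Rbx1* (0.49), subunits of the ligase that degrades HIF, were higher, and the groups overlapped for *Rbx1*. *Hif3a* (-2.27), a further alpha subunit, *Arnt* (-0.68), the partner of every alpha subunit, and *Hif1an* (-0.40), an asparagine hydroxylase of HIF, were lower. *Hif3a* had few reads, at 23.22 to 86.25 normalized read counts in the sgScramble and 5.78 to 13.65 in the sgKrt19 tumors (SE 0.49). *Arnt* lay at 2921, 3282, 2864 and 3553 normalized read counts in sgScramble 1 to 4 and at 1829, 2177 and 1879 in sgKrt19 5, 6 and 8, without overlap. *Arnt* passed the threshold (adjusted p = 0.00195 by limma, SE 0.12) where its partner *Hif1a* did not, and the difference between them was not tested.

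**Figure D5:**
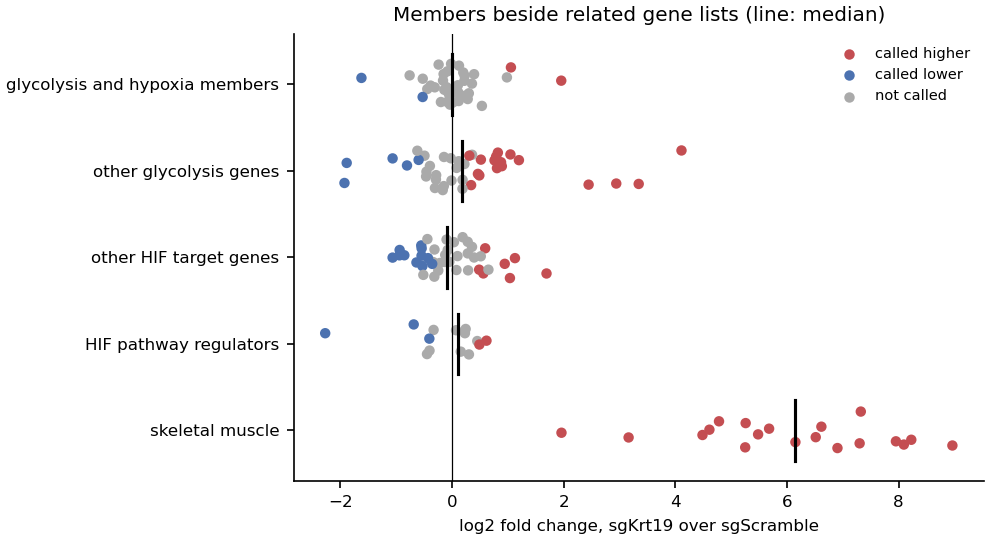
Each point is 1 gene tested, placed by its log2 fold change of sgKrt19 over sgScramble and colored by its call, with a black line at the median of each list. The members center on -0.005 with few calls, the other glycolysis genes reach 4.11 through genes of muscle, and the skeletal muscle markers center on 6.15.

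The other marker lists give the setting of these values. Of the genes tested, 6 of 10 epithelial, 10 of 10 T cell, 5 of 10 macrophage, 6 of 8 neutrophil and 5 of 10 endothelial markers were called higher, as were 3 of 10 proliferation genes, where 17.9% of all rows tested were called higher. In the macrophage list 1 gene was lower. Among 10 fibroblast markers, which summed to 116321 to 266383 and 126969 to 149172, limma called 0, with 1 at an unadjusted p under 0.05, while edgeR called 1 and DESeq2 2. Among 5 erythroid markers limma, edgeR and DESeq2 called 0, with 0 at an unadjusted p under 0.05 by limma. Of 8 adipocyte markers 1 was lower. The part of these cells in the levels of the members was not tested.

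Copies limit some of the values. For 11 members other genes shared a stretch of at least 200 bases with at least 95% identity, so reads could be split between them. *Gapdh* had 77 such genes, whose values summed to 309% to 404% of its own, and *Eno1* had 3 (79.4% to 80.6%), *Pgk1* 4 (64.7% to 75.8%), *Pgam1* 1 (20.8% to 31.3%) and *Pkm* 2 (19.0% to 22.9%). The called members *Car9*, *Car12*, *Eno2* and *P4ha1* had none. Exons of 14 members overlapped those of another gene, most on the opposite strand, and whether the counting used strand is not given in the sources used here.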

How the data were processed

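RNA of 7 subcutaneous tumors (polyA RNA per the labels, a stranded total RNA preparation per the study's methods) was sequenced as single reads. The authors deposited 1 table with a column per library, whose values are a signal, that is reads per gene divided by a size factor of the library. The genome build is mm10 per the labels, and the aligner, the counting program and the annotation are not given in the sources used here. In each column the values were whole multiples of the worth of 1 read, and 100.0% of them came out whole within 0.1 read, which gave 40781199 to 44972100 reads per library. A floor of 3 reads corresponds to a value of 2.74 to 3.47, and it covers counting error only. Pairs of libraries within a group differed by a chi-square of 17.2 to 74.2 per degree of freedom, a measure that includes the spread between tumors.

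Each library entered as 1 replicate. A linear model was fitted with limma 3.58.1 (lmFit, then eBayes with a trend, R 4.3.3) to log2(value + 1) of all rows that reached a value of 10 in 3 or more libraries, with Benjamini-Hochberg adjustment over all 21322 rows and a threshold of 0.05. Adding 1 makes fold changes of weakly expressed genes look smaller than they are. Differences between related genes were tested with a two-sided exact permutation test. As alternatives, edgeR 4.0.16 (quasi-likelihood, 3689 rows called higher and 3499 lower) and DESeq2 1.42.0 (4109 and 3862) were run on the recovered reads, beside 3820 and 3420 by limma, as were library size and TMM scaling, no filter or a filter at 100, a pseudocount of 10, a test against a fold change of 1.5 and leaving out each tumor.

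Positions and exon lengths come from GENCODE M21 on GRCm38, in which all 36 rows matched by identifier, and promoters from RefSeq on GRCm38. The members and the gene lists were chosen with earlier results of these data known. Named are *Krt19*, all members and, from each pathway list, the 4 largest log2 fold changes each way among called genes, of which 1 is not reported here.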

Additional observations from a re-analysis of the deposited data

How the results depend on the processing

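*Car12* and *Eno2* passed the threshold in all alternatives, the test against a fold change of 1.5 included. The number of members called was 4 with limma on TMM-scaled values, with a filter at 100 and with a pseudocount of 10, 5 with edgeR and with DESeq2 (*Ankrd37* added), and 3 without a filter. Scaling by library size alone called 9, of which 7 were lower (*Egln3*, *Hif1a*, *P4ha2*, *Pgam1* and *Tpi1* besides *Eno2* and *P4ha1*). Without a filter 1 was lower, since *P4ha1* was lost. Against a fold change of 1.5 there were 2 calls, 1 higher and 1 lower, with 6 other glycolysis genes, 1 other HIF target and 0 regulators. That count of 0 compares with 5 by limma against no change, 5 by edgeR and 7 by DESeq2.

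Leaving out 1 tumor gave 2 to 5 calls, 1 to 4 of them higher and 1 to 4 lower, and a median of -0.082 to 0.189. The 2 calls came without sgKrt19 6 (*Car12* and *Eno2*). Without sgKrt19 5, *Car9* was lost and *Egln3* and *P4ha2* were called lower, which made 1 higher and 4 lower. Without sgScramble 1, *Aldoc* and *Ankrd37* were added and *P4ha1* lost, which made 4 higher and 1 lower. Without sgKrt19 8 *Ankrd37* was added and *P4ha1* lost, and without sgScramble 2 or sgScramble 4 only *P4ha1* was lost, each leaving 1 lower. Without sgScramble 3, the library with the most muscle RNA among the controls, *Hif1a* was added. Called regulators numbered 3 to 7, with 3 without sgScramble 2, sgScramble 4, sgKrt19 5 or sgKrt19 8, other glycolysis genes 15 to 20 and other HIF targets 14 to 21.

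Signs turned for some genes and pairs, and not only for those near 0. The main estimates were -0.44 for the second *Aldoa* row, 0.233 for *Ldhb* minus *Ldha* and 0.176 for *Pfkm* minus *Pfkl*. Scaling by library size alone gave -0.19 for *Slc2a1*, -0.11 for *Pfkl*, -0.10 for *Aldoa*, -0.21 for *Pfkfb4*, -0.10 for *Pdk1*, -0.013 for *Epas1* and -0.0896 for *Ndrg1*. *Pfkfb4* was -0.020 with edgeR, -0.016 with DESeq2 and -0.0089 with TMM, and *Pfkfb3* 0.00027 with DESeq2. Leaving out 1 tumor spanned -0.26 to 0.30 for *Slc2a1*, -0.32 to 0.15 for *Slc16a3*, -0.17 to 0.011 for *Hk2*, -0.17 to 0.0396 for *Gpi1* and -0.70 to 0.0575 for the second *Aldoa* row.
The spans were -0.30 to 0.0718 for *Pgk1*, -0.16 to 0.0442 for *Eno1*, -0.22 to 0.24 for *Pfkfb3*, -0.0735 to 0.11 for *Pfkfb4*, -0.23 to 0.17 for *Egln1*, -0.59 to 0.27 for *Bnip3* and -0.10 to 0.34 for *Ndrg1*. Of the paired genes, the shift spanned -0.305 to 0.249 for *Pfkfb4* minus *Pfkfb3*, -0.034 to 0.456 for *Ldhb* minus *Ldha*, -0.273 to 0.168 for *Bnip3l* minus *Bnip3*, -0.088 to 0.054 for *P4ha2* minus *P4ha1* and -0.016 to 0.293 for *Pfkm* minus *Pfkl*.

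No paired analysis was possible because the groups share no replicate number. The causes of these shifts were not tested. The second *Aldoa* row, at 4.62 to 17.8 normalized read counts, has the fewest reads of the members, and the depth limits its precision.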
